A study of Mus musculus with 16 samples.

Results

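Huntingtin (Htt), huntingtin-associated protein 1 (Hap1) and 8 genes of the dynactin complex (Dctn1 to Dctn6, Actr1a and Actr1b) were followed by long-read RNA sequencing in the brain of a mouse model of Huntington's disease (HD). The genes were taken by their names in the isoform annotation, and they are 10 of the 23724 genes that had reads. R6/2 mice (B6CBA-Tg(HDexon1)62Gpb/3J) carry a transgene of human mutant HTT exon 1 under the human HTT promoter, and the mouse Htt gene is intact in them as in the non-transgenic (NT) controls. Cortex and striatum of 3-month-old males were sampled in 4 groups, NT cortex, R6/2 cortex, NT striatum and R6/2 striatum, with 4 samples in each and 16 in all. The transgene is not a gene of the mouse annotation, so its reads were not counted apart from those of Htt here, and whether any of them were assigned to Htt was not tested.

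Huntingtin is a very large scaffold protein that takes part in the transport of vesicles along microtubules. It binds Hap1, a protein enriched in neurons that in turn binds the dynactin subunit encoded by Dctn1 and the motor kinesin. Dynactin is the cofactor that cytoplasmic dynein needs to carry cargo over long distances towards the cell body. It consists of a short filament of actin-related proteins (Actr1a and Actr1b), a shoulder (Dctn2 and Dctn3) from which the long arm (Dctn1) projects, and a pointed-end complex (Dctn4, Dctn5 and Dctn6) that meets the adaptors of cargo. Loss of axonal transport by this machinery, including that of brain-derived neurotrophic factor from cortex to striatum, has long been studied in HD.

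No gene of the 10 passed the test for a change in gene level between R6/2 and NT mice in either region. A single isoform did pass. A form of Dctn2 with 13 exons, which the annotation does not hold, rose from 0.446 ± 0.317% to 3.6 ± 0.799% of complete Dctn2 reads in the R6/2 cortex (SD, n = 4), and in the striatum the samples were separated in the same direction without passing the test. Between regions, Dctn2 was lower in the striatum than in the cortex in both genotypes, and in R6/2 mice Htt was lower and Dctn5 higher. The genes also differed in the share of their reads classed as complete, from 98.1% of Dctn3 reads to 7.09% of Htt reads.

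In Iso-seq, a cDNA molecule is read as a whole, so a read shows which exons were joined in 1 molecule. TALON, the program that the authors used to name isoforms, calls a read known where its junctions match an annotated transcript and an incomplete splice match (ISM) where they match only a part of one. An NIC isoform is a new combination of splice sites that are all annotated, and an NNC isoform uses a splice site that is not. Known, NIC and NNC reads are called complete here, and gene reads are these plus ISM reads. Samples held 252885 to 808814 reads in the cortex and 317050 to 1496196 in the striatum, of which 431 to 1502 and 349 to 2296 belonged to the 10 genes. Levels are given as CPM, counts per 1e6 gene reads on 1 normalised scale, and values of a group are means ± SD of 4 samples. Labels gave no more than a sample number, so p values measure the spread between these samples.

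For 4 samples of the striatum (NT 1 and 2, and R6/2 2 and 3), 2 count files each were summed, and the other 12 samples had 1. The labels speak of raw data of 2 replicates for such samples without saying of what kind, and the files were taken here as 2 runs of 1 sample. The mean length of the isoforms read was 2141 to 2225 nt in the 4 striatal samples with 2 files and 1618 to 1885 nt in those with 1. ISM reads made up 12 to 13.8% and 15.6 to 20.1% of their gene reads. Each set holds 2 NT and 2 R6/2 samples, so it does not separate the genotypes, but it does bear on comparisons with the cortex. With the genotype in the model, 2335 of 7694 genes (30.3%) differed between samples of 2 files and of 1 (edgeR, adjusted p under 0.05), and so did 6 of the 9 members that could be tested. Hap1 (log2 difference 1.36 ± 0.32 SE, adjusted p = 0.00665), Actr1a (1.04 ± 0.22, 0.00329) and Actr1b (0.56 ± 0.15, 0.0112) were higher with 2 files. Dctn6 (-0.92 ± 0.17, adjusted p = 0.00154), Dctn3 (-0.74 ± 0.20, 0.0121) and Dctn1 (-0.54 ± 0.17, 0.0276) were lower. Without 1 incomplete single-exon model of 437 nt, described below, Dctn1 went the other way. The rest of its reads were at 182 ± 38.9 CPM with 1 file and 323 ± 8.79 CPM with 2. The Dctn1 call was lost without any 1 of 5 of the 8 striatal samples (NT 1, NT 2, R6/2 2, R6/2 3 or R6/2 4) and that of Dctn3 without R6/2 2. With upper-quartile normalisation, which moved the median of all genes from 0.07 to 0.18, Dctn2 passed in place of Dctn1. Striatal results are therefore also given with the number of files as a term.

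The labelled regions were checked with marker genes. The summed level of 8 markers of striatal projection neurons was 9785 to 13521 CPM in the NT striatum and 1882 to 3207 CPM in the R6/2 striatum, against 377 to 463 CPM in the NT cortex and 93.4 to 127 CPM in the R6/2 cortex. That of 6 markers of cortical excitatory neurons was 109 to 161 CPM in the cortex and 5.07 to 48.7 CPM in the striatum. Markers of oligodendrocytes summed to 2936 to 6557 CPM in the cortex and 11533 to 28329 CPM in the striatum. In tissue samples of this kind, fewer cells of a type and less RNA per cell cannot be told apart, and the part of cell composition in the differences below was not tested.

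The plot of levels in the 16 samples shows the 10 genes together.

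**Figure D1:**
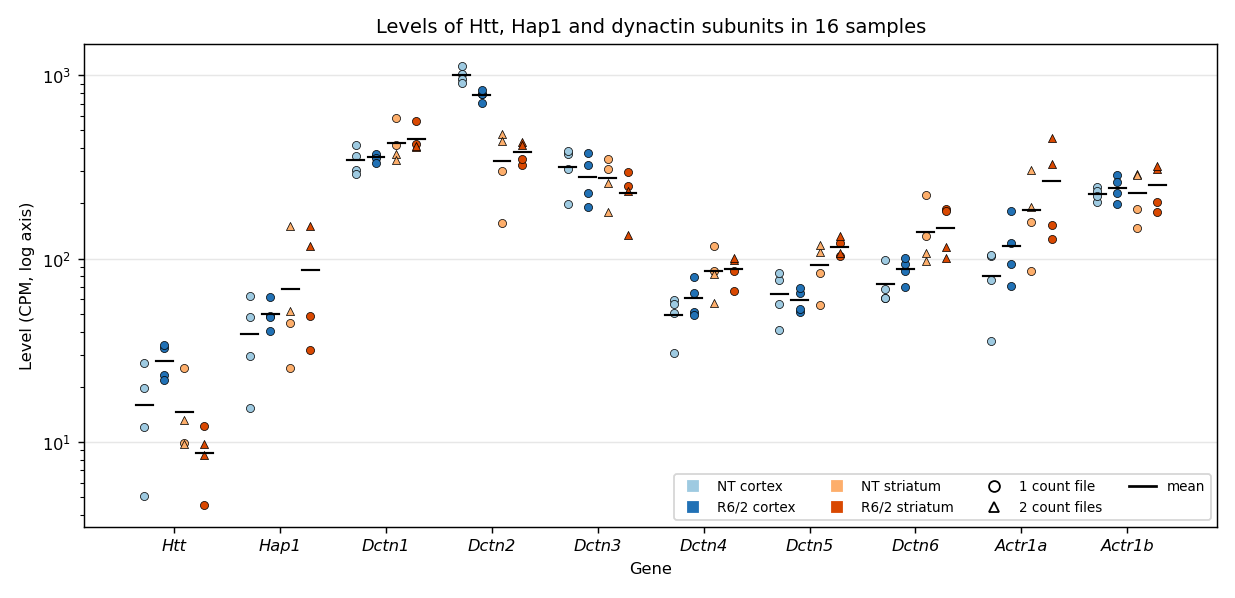
Level (CPM, log axis) of each of the 10 genes in every sample, in the order NT cortex, R6/2 cortex, NT striatum, R6/2 striatum, with circles for samples of 1 count file, triangles for samples of 2 and bars for group means. Dctn2 lies at 705 CPM or more in all cortical samples and at 478 CPM or less in all striatal ones, and the genotypes overlap within each region for all genes but Dctn2 in the cortex.

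Htt was covered by few reads. NT cortical samples held 7, 12, 1 and 6 Htt reads, which correspond to 19.7, 27.1, 5.09 and 12.1 CPM. R6/2 cortical samples held 17, 11, 15 and 14 reads, or 32.5, 23.4, 21.7 and 33.6 CPM. In the striatum, the NT samples were at 13.2, 9.74, 9.86 and 25.3 CPM and the R6/2 samples at 4.55, 9.74, 8.49 and 12.3 CPM, from 33 and 25 reads in all. The R6/2 cortex was thus the group with the highest mean, 27.8 ± 6.14 CPM against 16 ± 9.52 CPM in the NT cortex, but the genotypes overlapped in both regions. The log2 fold change in the cortex was 0.66 ± 0.37 (SE, edgeR adjusted p = 0.377), and Htt was below the filter on low counts in the striatum. All 4 R6/2 striatal samples were lower than all 4 R6/2 cortical ones, a pattern that was not counted over all genes.

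In the striatum, Hap1 varied more between samples, relative to its mean, than any other member. In the NT striatum it was at 150, 51.9, 44.3 and 25.3 CPM and in the R6/2 striatum at 48.5, 117, 151 and 31.9 CPM, and the highest value of either genotype came from a sample with 2 count files. The cortical samples lay between 15.3 and 62.5 CPM in NT mice and between 40.1 and 62.1 CPM in R6/2 mice. Log2 fold changes were 0.27 ± 0.30 in the cortex (adjusted p = 0.701) and 0.30 ± 0.53 in the striatum (adjusted p = 0.999).

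Dctn1, which encodes p150Glued, the arm that binds microtubules and the intermediate chain of dynein, overlapped between the genotypes in both regions. Group means were 344 ± 57.3 CPM in the NT cortex, 356 ± 16.8 in the R6/2 cortex, 429 ± 107 in the NT striatum and 451 ± 74.2 in the R6/2 striatum. Log2 fold changes between the genotypes were 0.06 ± 0.18 in the cortex (adjusted p = 0.907) and 0.06 ± 0.28 in the striatum (adjusted p = 0.999).

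Dctn2 encodes dynamitin, the shoulder subunit that joins the arm to the filament and that breaks dynactin apart when it is in excess. NT cortical samples were at 1012, 953, 1124 and 907 CPM, and R6/2 cortical samples at 705, 788, 786 and 836 CPM. All 4 R6/2 values lay below all 4 NT values, with a ratio of means of 0.779. Of 12133 genes with at least 10 reads in the 8 cortical samples, 603 (4.97%) had lower values in every R6/2 cortical sample. The log2 fold change of -0.34 ± 0.18 did not pass the test (edgeR adjusted p = 0.336). In the striatum, the NT samples were at 478, 437, 299 and 157 CPM and the R6/2 samples at 323, 435, 418 and 351 CPM, and the genotypes overlapped.

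Dctn3, the small shoulder subunit, had a mean of 316 ± 85.2 CPM in the NT cortex and 280 ± 85.5 CPM in the R6/2 cortex, and of 274 ± 73.2 and 228 ± 68.3 CPM in the striatum. Of the 9 members tested in the striatum, it was the one with a negative log2 fold change (-0.27 ± 0.34, adjusted p = 0.974), and Htt, which was not tested there, also had a lower mean in R6/2 than in NT mice (8.76 against 14.5 CPM). The pointed-end subunits Dctn4, Dctn5 and Dctn6 were at 49.2 ± 13, 64.2 ± 19.4 and 72.3 ± 17.9 CPM in the NT cortex and at 61.1 ± 14, 59.5 ± 9.02 and 87.7 ± 13.2 CPM in the R6/2 cortex. In the striatum they were at 85.6 ± 24.2, 91.8 ± 28.2 and 140 ± 57.3 CPM in NT mice and at 88 ± 15.6, 116 ± 13.6 and 146 ± 44.2 CPM in R6/2 mice. All these groups overlapped between the genotypes.

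Actr1a and Actr1b encode the actin-related proteins of the filament. Actr1a was at 76.1, 104, 35.6 and 105 CPM in the NT cortex and at 70.7, 93.4, 182 and 122 CPM in the R6/2 cortex. In the striatum it was at 303, 192, 158 and 86.2 CPM in NT mice and at 153, 329, 453 and 128 CPM in R6/2 mice. Its log2 fold change was 0.48 ± 0.28 in the cortex (adjusted p = 0.402) and 0.48 ± 0.42 in the striatum (adjusted p = 0.871), and the groups overlapped in both. Without R6/2 sample 3 of the region, these values were 0.17 in the cortex and 0.15 in the striatum. Actr1b was at 225 ± 17.9 and 243 ± 37.7 CPM in the cortex and at 227 ± 71.3 and 253 ± 71.2 CPM in the striatum.

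Whether the R6/2 genotype changed these genes was tested with edgeR's quasi-likelihood test over all genes. In the cortex, 198 of 6128 genes tested (3.23%) had an adjusted p under 0.05, and 0 of the 10 members did. Their median log2 fold change was 0.18, against 0.02 for all genes tested, with 7 members higher and 3 lower. No member had an unadjusted p under 0.05, and with DESeq2, which gave Htt no adjusted p, 0 passed after adjustment and 1 before it. In the striatum, 39 of 7694 genes (0.507%) and 0 of the 9 members tested passed, again with 0 unadjusted, and with DESeq2 0 passed before or after adjustment. With the number of files as a term, 332 genes (4.32%) passed and still 0 members, before or after adjustment. Fold changes in this model were close to those without the term, for example 0.42 ± 0.22 for Actr1a (adjusted p = 0.343) and 0.33 ± 0.31 for Hap1 (adjusted p = 0.663). The interaction of region and genotype passed for 1 of 7360 genes (0.0136%) and for 0 of the 10 members (0 unadjusted, 0 with DESeq2 before or after adjustment). The largest interaction of a member was that of Htt, with a log2 value of -1.21 ± 0.58. With the number of files as a term, the interaction passed for 3 genes (0.0408%) and 0 members, and 1 member had an unadjusted p under 0.05 (Dctn2, log2 value 0.55 ± 0.27, adjusted p = 0.848).

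**Figure D2:**
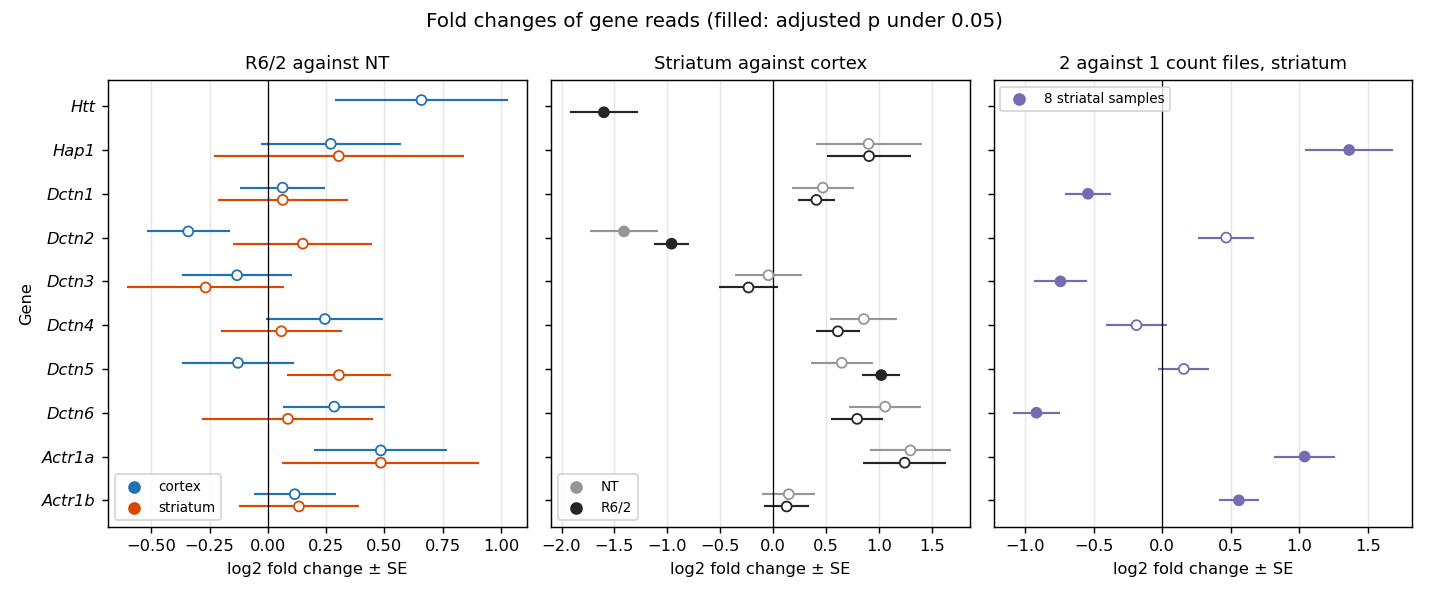
Log2 fold change ± SE of each gene between R6/2 and NT (left, by region), between striatum and cortex (middle, by genotype) and between striatal samples of 2 and 1 count files (right), with filled points for an adjusted p under 0.05 and no point for Htt where it was below the filter. No genotype change is filled, Dctn2 is filled in both genotypes between regions, and 6 genes are filled for the number of count files.

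Regions differed more than genotypes did. In NT mice, 584 of 6175 genes (9.46%) differed between striatum and cortex, 362 of them higher in the striatum, and with upper-quartile normalisation 280 of 547 were. The median log2 difference over all genes was 0.12 and moved to -0.01 with that normalisation. Of 9 members tested, Dctn2 was the 1 that passed, at 999 ± 93.8 CPM in the cortex and 343 ± 146 CPM in the striatum (log2 difference -1.41 ± 0.32, edgeR adjusted p = 0.0166). Without striatal NT 3 its adjusted p was 0.0552, with a log2 difference of -1.37. When only the 2 striatal NT samples of 1 count file were set against the cortex, it was -2.07 (adjusted p = 0.00013). DESeq2 also passed Actr1a, which had a log2 difference of 1.30 ± 0.38 in edgeR (adjusted p = 0.0531). Its mean was 2.44 times as high in striatal samples of 2 files as in those of 1. Dctn6 passed beside Dctn2 without striatal NT 1 or NT 2 (1.06 ± 0.34 with all samples, adjusted p = 0.077). Dctn4 (0.86 ± 0.32), Hap1 (0.90 ± 0.50), Dctn5 (0.65 ± 0.29) and Dctn1 (0.47 ± 0.29) had positive values that did not pass. The Hap1 value was 0.21 without striatal NT 1 and -0.10 with only the striatal samples of 1 file, and that of Dctn1 was 0.24 without striatal NT 4.

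In R6/2 mice, 1034 of 6985 genes (14.8%) differed between regions, and 3 of 10 members were among them. Dctn2 was at 779 ± 54.4 CPM in the cortex and 382 ± 53.6 CPM in the striatum (log2 difference -0.96 ± 0.17, adjusted p = 0.00301). Htt was at 27.8 ± 6.14 and 8.76 ± 3.22 CPM (-1.60 ± 0.32, adjusted p = 0.00692). Dctn5 was at 59.5 ± 9.02 and 116 ± 13.6 CPM (1.02 ± 0.18, adjusted p = 0.00345). For each of these, no striatal sample overlapped with a cortical one. Dctn1, which did not pass, was separated in the same way, and such separation was not counted over all genes. Without the single-exon Dctn1 model of 437 nt, the rest of its reads overlapped between regions. They were at 207 ± 28.2 CPM in the R6/2 cortex and 261 ± 73.8 CPM in the R6/2 striatum. Actr1a (1.24 ± 0.39, adjusted p = 0.0539) and Dctn6 (0.79 ± 0.25, adjusted p = 0.0506) lay close to the threshold, and 3 to 5 members passed when 1 sample was left out. For Actr1a, the R6/2 striatal samples of 1 file lay within the range of the R6/2 cortex (70.7 to 182 CPM). The Htt call was lost when ISM reads were left out or when only the first count file of each sample was used, since Htt then fell below the filter on low counts. With only the 2 striatal samples of 1 file, Dctn2, Dctn5 and Htt passed together with Dctn1 and Dctn6. In these samples, R6/2 1 and 4, the single-exon Dctn1 model held 158 and 143 reads. Whether Dctn1 passes in that fit without the model was not tested.

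The 10 genes differed in the share of their reads that were classed as complete. This class rests on splice junctions, and a complete read need not span a whole transcript. For Htt, a 2-exon NIC model of 470 nt counts as complete. Of all their gene reads over the 16 samples, 98.1% of Dctn3 reads (2357 of 2402), 96% of Dctn6, 95.9% of Dctn2 (5131 of 5351), 95.1% of Dctn5, 94.4% of Actr1a, 85.4% of Hap1, 78.5% of Actr1b and 54% of Dctn4 reads were complete. For Dctn1 it was 18.6% (671 of 3617, Wilson 95% interval 17.3 to 19.9%) and for Htt 7.09% (10 of 141, 3.9 to 12.6%). Intervals cover counting error only, since molecules were not counted by unique identifiers. The main known Dctn3 isoform has 973 nt, the main Dctn1 isoform 4163 nt, and the longest coding transcript of Htt (ENSMUST00000080036) has 67 exons and 13215 nt. No read of that Htt transcript as a whole was among the 10 complete ones, which belonged to 8 shorter models, and the best covered of these was the 18-exon ENSMUST00000148953 of 4382 nt, with 3 reads.

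**Figure D3:**
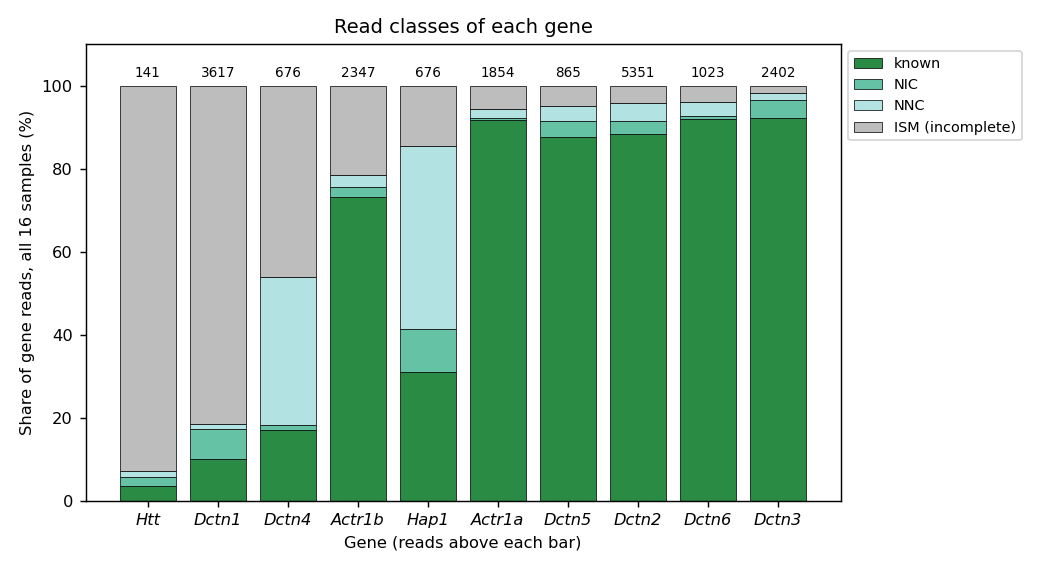
Share (%) of each gene's reads in the known, NIC, NNC and ISM classes, summed over the 16 samples, with the number of reads above each bar. Htt (7.09% complete), Dctn1 (18.6%) and Dctn4 (54%) stand to the left with mostly or largely grey ISM bars, Hap1 and Dctn4 have the largest NNC parts, and the other genes are mostly known.

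A single incomplete form held much of the Htt signal. A model of 4 exons and 635 nt, the summed length of the first 4 exons of ENSMUST00000148953, held 72 of the 141 Htt reads (51.1%). It held 57.7% of Htt reads in the NT cortex, 66.7% in the R6/2 cortex, 30.3% in the NT striatum and 36% in the R6/2 striatum. Pooled over striatal samples, the model held 57.9% in those of 1 count file and 20.5% in those of 2. The share in striatal samples of 1 file was thus close to that in the NT cortex. Its level in the cortex was 9.62 ± 6.48 CPM in NT and 18.6 ± 5.57 CPM in R6/2 mice, and the groups overlapped (two-sided exact permutation test, p = 0.114). In R6/2 mice it was at 18.6 ± 5.57 CPM in the cortex and 3.56 ± 2.63 CPM in the striatum, with no overlap (exact permutation test, p = 0.0286, adjusted over 40 tests of such models 0.114). The rest of the Htt reads also did not overlap between these groups, with 9.2 ± 1.92 and 5.2 ± 1.62 CPM (exact permutation test, p = 0.0286, adjusted 0.114). In R6/2 mice, both parts of the Htt signal were thus lower in every striatal than in any cortical sample. How many genes or models show such separation was not counted.

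Incomplete forms of Dctn1, Dctn4 and Actr1b also moved with the number of count files. A single-exon model of Dctn1 (437 nt, where the last exon of the main isoform has 444) held 1215 of 3617 reads, and it made up 59.1% of Dctn1 reads in striatal samples of 1 file and 14.8% in those of 2. Another with 27 exons and 6204 nt went the other way, from 8.31% to 23.8% (536 reads in all). A single-exon model of Actr1b as long as its last exon (2065 nt, 385 reads) held 32.8% and 6.3% of Actr1b reads, and a 2-exon model of Dctn4 (216 nt, 210 reads) 42.2% and 9.69%. In the cortex, the single-exon Dctn1 model was at 109 ± 16.8 CPM in NT and 149 ± 29.4 CPM in R6/2 mice without overlap (exact permutation test, p = 0.0286, adjusted 0.114). The rest of the Dctn1 reads overlapped at 234 ± 63.6 and 207 ± 28.2 CPM. How many incomplete models of all genes were separated between the genotypes was not counted.

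The share of ISM reads itself was compared between the genotypes for each gene with at least 5 reads in every sample of a region. In 17 tests, 0 passed and 0 had an unadjusted p under 0.05 (two-sided exact permutation test over 70 arrangements, smallest adjusted p = 0.941, smallest p that the design allows 0.0286). Of 5323 genes with at least 5 reads in every striatal sample, 1342 (25.2%) had a higher ISM share in all samples of 1 file than in any of 2 files, and of the 9 members among them 5 did. For these, the share in samples of 1 and of 2 files was 89.9 ± 6.21% and 72.3 ± 5.04% for Dctn1, 64.2 ± 16.8% and 20.4 ± 8.36% for Dctn4 and 46.7 ± 25.7% and 11.1 ± 1.69% for Actr1b. For Dctn2 it was 11.1 ± 9.84% and 3.46 ± 0.583%, and for Dctn3 4.76 ± 1.94% and 1.07 ± 0.96%.

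**Figure D4:**
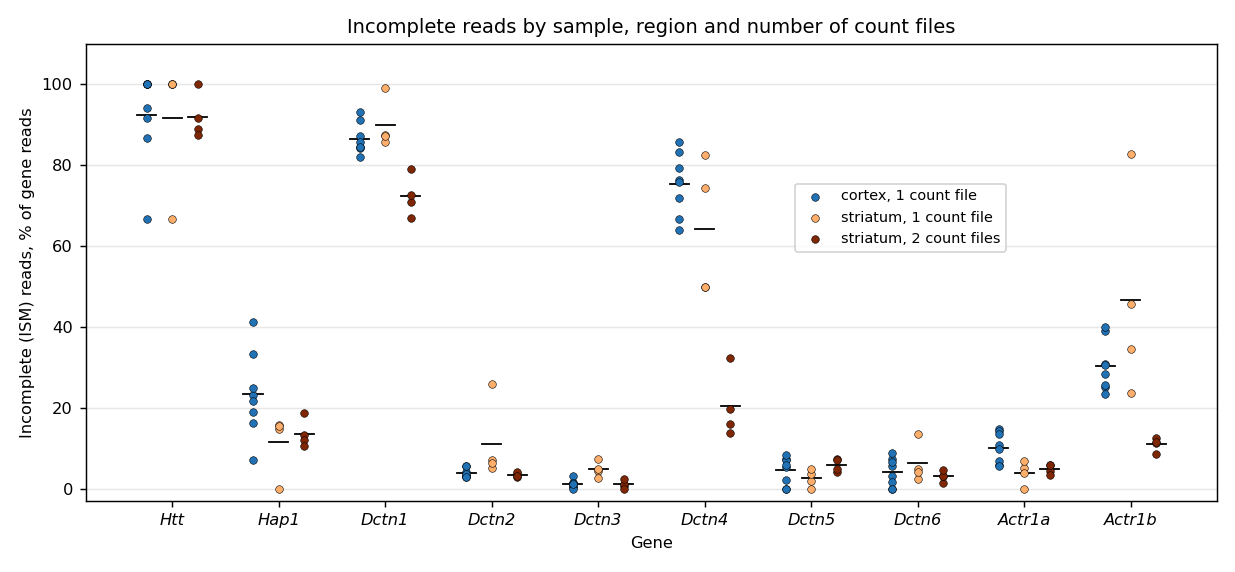
Share of ISM reads (% of gene reads) of each gene in every sample, for cortical samples, striatal samples of 1 count file and striatal samples of 2, with bars for means. Htt is at or above 66.7% in every sample, and Dctn1, Dctn4 and Actr1b are lower in striatal samples of 2 files (means of 72.3, 20.4 and 11.1%) than in those of 1 (89.9, 64.2 and 46.7%).

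Use of isoforms was compared among complete reads, and the change of Dctn2 was the one that passed. Dctn2 (ENSMUSG00000025410, mm10 chromosome 10, 127266368 to 127281950, plus strand) has 1 coding transcript among 5 annotated ones, ENSMUST00000026479, of 14 exons. The NIC isoform that rose has 13 exons and 1852 nt in the files, where the known isoform has 1918 nt (1784 nt in GENCODE M21, which gives the exon lengths and coordinates below). The 13-exon form is thus shorter by 1 exon and 66 nt, which is 22 codons. Exon 8 is the only one of the 14 exons that is 66 nt long, it is wholly coding and in frame, and 0 of the 5 annotated transcripts join exon 7 to exon 9. The files give no splice sites for this model, so that exon 8 is the one left out follows from lengths alone. The exon and the junction that its loss would make are shown because they are what tells both forms apart. In the first line capitals mark exon 8, at chr10:127277255-127277320 (mm10, plus strand, transcript sequence of GENCODE M21), between 15 nt of exon 7 and of exon 9, and in the second they mark the start of exon 9 joined directly to exon 7.
Dctn2 exon 8 with flanks: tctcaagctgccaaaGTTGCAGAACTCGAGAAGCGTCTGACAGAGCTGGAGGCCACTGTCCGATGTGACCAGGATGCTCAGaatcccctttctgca
Dctn2 exon 7 to exon 9 junction: tctcaagctgccaaaAATCCCCTTTCTGCA

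In the NT cortex, the 13-exon isoform had 2 of 339, 3 of 410, 0 of 214 and 2 of 431 complete Dctn2 reads. In the R6/2 cortex it had 12 of 357, 12 of 350, 15 of 524 and 16 of 338. Every R6/2 sample, with 2.86 to 4.73%, lay above every NT sample, with 0 to 0.732%. The sample with 0 reads allows a share of up to 1.4% at this depth. Of 8057 isoforms with at least 10 reads, of genes with at least 5 complete reads in every cortical sample, 238 (2.95%) were higher in every R6/2 sample. In edgeR's test of isoform usage, 11 of 3060 genes (0.359%) passed in the cortex (Simes p per gene, adjusted p under 0.05), and of the 5 members that could be tested (Dctn1, Dctn2, Dctn3, Dctn4 and Hap1) Dctn2 did (adjusted p = 0.0038). The 13-exon isoform itself was 1 of 17 of 8401 isoforms (0.202%) that passed, with a log2 change in usage of 1.93 (adjusted p = 0.00207). Without any 1 of the 8 cortical samples, the call stayed and the log2 change lay between 1.76 and 2.13. The known 14-exon isoform went from 93.4 ± 0.883% to 90.1 ± 0.727% of complete reads without overlap (exact permutation test, p = 0.0286, adjusted over 46 isoform tests 0.219), where 238 of the 8057 isoforms (2.95%) were lower in every R6/2 sample. Its log2 change in usage of -0.03 did not pass in edgeR.

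In the NT striatum, the 13-exon isoform had 1 of 350, 4 of 523, 0 of 169 and 0 of 23 complete reads, and in the R6/2 striatum 3 of 202, 13 of 385, 12 of 382 and 2 of 134. All R6/2 samples, with 1.49 to 3.38%, again lay above all NT samples, with 0 to 0.765%, and 340 of 9974 isoforms (3.41%) had such a pattern in the striatum. The 2 samples without a read allow shares of up to 1.78% and 13%, so either could have held the share of the lowest R6/2 sample unseen. Means were 0.263 ± 0.361% and 2.37 ± 1.03% (exact permutation test, p = 0.0286, the smallest that 4 against 4 allow, adjusted over 46 isoform tests 0.219). In edgeR, the log2 change of 1.55 did not pass (isoform adjusted p = 0.436, gene adjusted p = 0.684). In the striatum, 3 of 4443 genes (0.0675%) passed and 0 of the 7 members tested, 2 with an unadjusted p under 0.05 (Dctn2 and Dctn3). The F test per gene gave the same counts for the members. With the number of files as a term, 20 genes (0.45%) passed and 0 members, with an adjusted p of 0.23 for Dctn2. Within the striatal samples of 1 file, the isoform had 0 of 192 reads in NT and 5 of 336 in R6/2 mice, and within those of 2 files 5 of 873 and 25 of 767. The 0 of 192 reads allow a share of up to 1.56%, which is above the 1.49% of each R6/2 sample of 1 file, so within those samples a difference was not detectable at this depth. The depth of a sample limits these values, since the isoform had 97 reads in all.

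**Figure D5:**
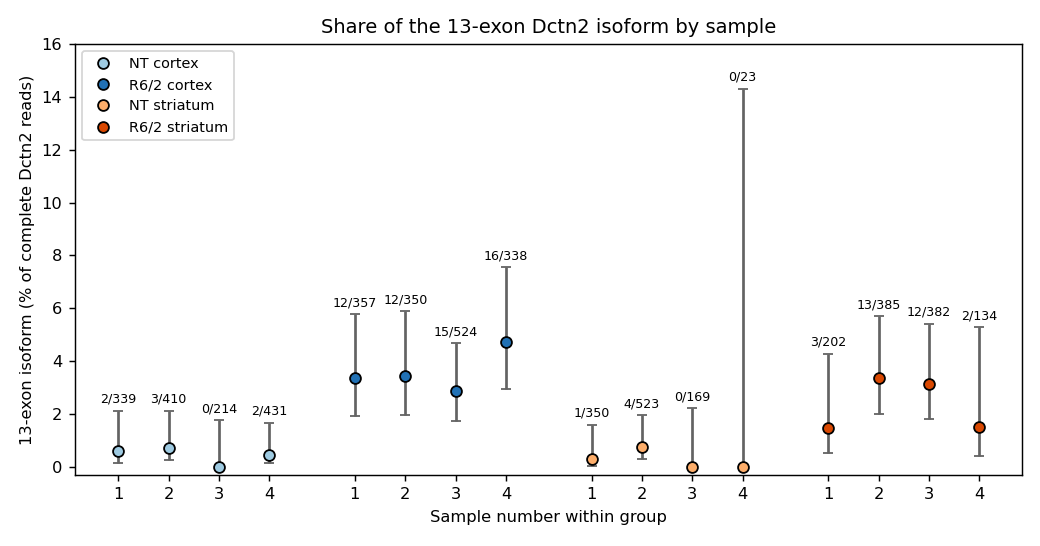
Share of the 13-exon isoform (% of complete Dctn2 reads) in each of the 16 samples by group, with Wilson 95% intervals for counting error and the reads behind each share. In both regions the 4 R6/2 samples (2.86 to 4.73% in the cortex, 1.49 to 3.38% in the striatum) lie above the 4 NT samples (0 to 0.732% and 0 to 0.765%), and the interval is widest for NT striatum 4, with 23 reads.

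Between regions, use of isoforms passed for 10 of 3698 genes (0.27%) in NT and 31 of 3998 (0.775%) in R6/2 mice, and for 0 of the 7 members tested in either (edgeR, 1 with an unadjusted p under 0.05 in each, Dctn3 in NT and Dctn4 in R6/2 mice). By the F test, 0 passed in either, and 1 and 2 had an unadjusted p under 0.05.

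Dctn1 (ENSMUSG00000031865, chromosome 6, 83165920 to 83200117, plus strand) is known for short alternative exons in the part that follows its microtubule-binding domain. Its 671 complete reads were spread over 4 known isoforms and many unannotated ones. ENSMUST00000113913 (32 exons, 4163 nt, 178 reads) and ENSMUST00000113919 (32 exons, 4292 nt, 75 reads) hold all of 4 short exons, ENSMUST00000077407 (28 exons, 4118 nt, 52 reads) holds none, and ENSMUST00000113907 (26 exons, 4205 nt, 63 reads), which starts with a first exon of its own, holds only the third. Exon 27 of the 32 of ENSMUST00000113913 lies far downstream of exons 5 to 7, away from the microtubule-binding domain. These 4 exons are shown because they tell the isoforms apart. All of each is coding, the capitals mark the whole exon, and they lie on the plus strand of mm10 (GENCODE M21) at chr6:83183936-83183956, chr6:83186428-83186445, chr6:83187764-83187784 and chr6:83197319-83197333.
Dctn1 exon 5: CGGGGACTGAAGCCTAAGAAG
Dctn1 exon 6: GCACCGACAGCCCGAAAG
Dctn1 exon 7: ACCACAACTCGACGGCCCAAG
Dctn1 exon 27: AGGAACCACAGCGAG

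Reads of ENSMUST00000113913 and ENSMUST00000113919, the known isoforms with all 4 short exons, were pooled over the samples of a group. Together they held 48.5% of complete Dctn1 reads in the NT cortex (32 of 66) and 48.5% in the R6/2 cortex (49 of 101). They held 39.2% in the NT striatum (80 of 204) and 30.7% in the R6/2 striatum (92 of 300). In the striatum they held 26.5% in samples of 1 file and 36.1% in those of 2. The NIC and NNC isoforms, with 254 and 49 reads, were not examined for the short exons. The 28-exon form without them held 4.55, 13.9, 6.37 and 7.33% in the same order of groups. In the cortex, ENSMUST00000113913 went from 29.4 ± 8.2% in NT to 42.5 ± 4.02% in R6/2 samples and ENSMUST00000113919 from 17.2 ± 6% to 3.63 ± 4.97%, and both overlapped (exact permutation test, p = 0.0571 for each, adjusted 0.282). In R6/2 mice, ENSMUST00000113913 was at 42.5 ± 4.02% in the cortex and 18.1 ± 5.93% in the striatum without overlap (exact permutation test, p = 0.0286, adjusted 0.219). Such separation between regions was not counted over all isoforms. None of these Dctn1 differences passed in edgeR's test of usage, where the adjusted p of Dctn1 was 0.852 between the genotypes in the cortex. A further 3 NIC isoforms also reached 5% of complete reads in a group, with 33, 19 and 4 reads in all.

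Hap1 (ENSMUSG00000006930, chromosome 11, 100347327 to 100356128, minus strand) was read mostly in unannotated forms. An NNC isoform of 13 exons and 3103 nt had 266 of its 577 complete reads, the known ENSMUST00000103124 (11 exons, 2120 nt) 203 and an NIC isoform of 13 exons and 3085 nt 26. The NNC isoform held 39.6 ± 8.2% in the NT cortex, 54.2 ± 8.92% in the R6/2 cortex, 37.3 ± 4.66% in the NT striatum and 55.4 ± 18.1% in the R6/2 striatum. In the striatum it had 38 of 99, 21 of 52, 7 of 23 and 2 of 5 reads in NT and 11 of 27, 47 of 95, 63 of 127 and 9 of 11 in R6/2 samples. The highest NT share, 40.4%, and the lowest R6/2 share, 40.7%, were almost the same (exact permutation test, p = 0.0286, adjusted 0.219). Of all isoforms compared in the striatum, 340 of 9974 (3.41%) were higher in every R6/2 sample. The log2 change in usage of 0.29 did not pass in edgeR.

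Dctn3 (ENSMUSG00000028447, chromosome 4, 41714798 to 41723170, minus strand) had an NIC isoform of 8 exons and 1116 nt, which is 1 exon and 143 nt more than the known ENSMUST00000030158. It had 9 of 131, 0 of 134, 5 of 75 and 17 of 96 complete reads in the NT cortex and 6 of 197, 7 of 107, 0 of 220 and 4 of 79 in the R6/2 cortex. In the striatum it had 3 of 135, 0 of 315, 2 of 179 and 1 of 64 reads in NT and 7 of 191, 6 of 124, 1 of 214 and 9 of 96 in R6/2 samples, and the groups overlapped in both regions. The known isoform held 95.8 ± 0.421% in the NT striatum and 90.9 ± 2.78% in the R6/2 striatum without overlap (exact permutation test, p = 0.0286, adjusted 0.219), as 261 of 9974 isoforms (2.62%) were lower in every R6/2 striatal sample. For the 8-exon form, the striatal log2 change of 1.48 did not pass (isoform adjusted p = 0.9).

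Dctn4 (ENSMUSG00000024603, chromosome 18, 60526185 to 60558766, plus strand) was read more often as an NNC isoform of 14 exons than as the known ENSMUST00000025505 of 13, from which the former differs by 1 exon and 21 nt. The 14-exon form had 201 of 365 complete reads and the known form 115. Their shares were 55.3 ± 1.67% and 36.1 ± 1.95% in the R6/2 striatum, 41.3 ± 29 and 34.4 ± 11.4% in the NT striatum, and 51.3 ± 8.17 and 19.2 ± 6.74% in the R6/2 cortex. In the NT cortex they were 44 ± 31.4 and 7.14 ± 14.3%, where the 4 samples had only 3, 9, 2 and 7 complete reads. The NT striatal mean of the 14-exon form includes sample 4, with 0 of 4 complete reads. Pooled over samples, the 14-exon form held 55.7% in the NT striatum and 55.4% in the R6/2 striatum. A 2-exon NNC form of 554 nt had 31 reads.

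In the other genes, 1 known isoform held most complete reads. For Actr1a (ENSMUSG00000025228, chromosome 19, 46376811 to 46395748, minus strand) this was ENSMUST00000040270, with 95.9 to 99.5% as group means. For Actr1b (ENSMUSG00000037351, chromosome 1, 36698114 to 36714422, minus strand) it was ENSMUST00000043951, with 91.1 to 96.1%. Dctn5 (ENSMUSG00000030868, chromosome 7, 122133041 to 122149044, plus strand) was read as ENSMUST00000033156 in 85.6 to 88.8% and Dctn6 (ENSMUSG00000031516, chromosome 8, 34090420 to 34108796, minus strand) as ENSMUST00000033913 in 88.8 to 95.4%. Htt lies on chromosome 5 from 34761740 to 34912534 on the plus strand (ENSMUSG00000029104).

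Genes that work with these proteins were examined as 6 lists of 55 genes in all. In the cortex, 45 could be tested, of which 1 rose and 2 fell in R6/2 mice (edgeR), where 198 of all 6128 genes (3.23%) passed. All 3 belonged to the list of partners of huntingtin and Hap1 (3 of 13 tested). The lists were chosen with earlier results of these data known, so this count is no test of that list. Kalrn, whose protein binds Hap1 and acts in dendritic spines, was at 124 ± 27 CPM in the NT cortex and 26.5 ± 3.93 CPM in the R6/2 cortex. Its log2 fold change was -2.22 ± 0.24 (adjusted p = 9.76e-06). Itpr1, the receptor that releases calcium from the endoplasmic reticulum and is bound by huntingtin and Hap1, went from 141 ± 12.1 to 70.8 ± 7.59 CPM (-0.99 ± 0.19, adjusted p = 0.00398). Ahi1, whose protein forms a stable complex with Hap1, rose from 210 ± 43.1 to 350 ± 31.9 CPM (0.77 ± 0.19, adjusted p = 0.0249). Of the other lists, 0 of 3 further dynactin subunits, 0 of 10 dynein chains, 0 of 12 dynein regulators and adaptors, 0 of 5 kinesin-1 chains and 0 of 2 genes for brain-derived neurotrophic factor and its receptor passed in the cortex. The median log2 fold change of the 45 genes was -0.03, against 0.02 for all genes tested.

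In the striatum, 47 of the 55 could be tested, and Itpr1 fell from 231 ± 26 to 96.9 ± 15.1 CPM (-1.27 ± 0.22, adjusted p = 0.0432). With the number of files as a term, Kalrn (-1.27 ± 0.24, adjusted p = 0.00976) and Kif5c, a heavy chain of kinesin-1 (-0.92 ± 0.16, adjusted p = 0.00694), also fell, and Itpr1 had an adjusted p of 0.00091. Of all 7694 genes tested in the striatum, 0.507% passed without this term and 4.32% with it. Kif5c was at 540 ± 92.1 CPM in the NT and 288 ± 21.4 CPM in the R6/2 striatum, and Kalrn at 48.8 ± 11.4 and 21.4 ± 3.57 CPM. Levels of striatal projection neuron markers also differed between these groups, with the sums given above, and their part in these values was not tested.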

How the data were processed

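The authors sequenced full-length cDNA of cortex and striatum from R6/2 and NT mice (PacBio Iso-seq), kept reads with a poly(A) tail, aligned these to mm10 (minimap2 2.17-r941), repaired splice errors with TranscriptClean and named isoforms with TALON. The deposited values are read counts per isoform, before filtering and without normalisation. Here, the 2 count files of 4 striatal samples were summed, and known, ISM, NIC and NNC counts were added per gene. Genomic-class reads were left out. Levels are CPM on a TMM scale over the 16 samples. For gene levels, the quasi-likelihood test of edgeR 4.0.16 (R 4.3.3) was used after filterByExpr and TMM, and isoform usage with diffSpliceDGE over isoforms with at least 10 reads. Benjamini-Hochberg adjustment ran over all genes or isoforms, with a threshold of 0.05. For single values, exact two-sided permutation tests were run in Python 3.11.15, and Wilson intervals were computed with scipy 1.17.1. Gene positions and exons come from GENCODE M21 (mm10). DESeq2 1.42.0, other filters and normalisations, single files and leaving out each sample were tried as alternatives, and scripts were tested on simulated data.

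The 10 genes, the related lists and the markers were chosen with earlier results of these data known. Named are all members, isoforms with at least 5% of a member's complete reads in a group or an adjusted p under 0.05, related genes that passed between the genotypes, and the 3 genes most like Htt and Hap1. The single-exon, 27-exon and short incomplete models were named after their values were seen, as were genotype comparisons within 1 number of files.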

Additional observations from a re-analysis of the deposited data

Results flagged for a closer look

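Dctn1 stood out in 1 sample. Its level in R6/2 striatum 4 was 562 CPM, where the other 3 R6/2 striatal samples lay between 408 and 424 CPM. In this sample, which has 1 count file, 143 of 229 Dctn1 reads (351 CPM) were of the single-exon model of 437 nt. The rest, at 211 CPM, lay within the 185 to 328 CPM of such reads in the R6/2 striatum. Of 44 groups of 4 samples examined for a sample far from the rest, this was the 1 found, and chance alone would give about 5% of them.

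Reads of TALON's genomic class, which overlap a gene without matching its splicing, were left out of all comparisons above. For the 10 genes they came to 600 reads, 169 for Actr1a, 115 for Hap1, 110 for Dctn5, 101 for Dctn4, 44 for Dctn2, 35 for Htt, 15 for Dctn6, 9 for Dctn1 and 1 each for Dctn3 and Actr1b. All Hap1 genomic reads belonged to 1 model of 2092 nt.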

How the results depend on the processing

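The counts of members that passed stayed within 1.5 times in 63 of 73 alternatives and in 98 of 104 fits that left out 1 sample. In NT mice, the 1 member that differed between regions became 2 with DESeq2, without a filter on low counts or with genomic reads added, and 3 with striatal samples of 1 count file only. In R6/2 mice, the 3 members became 6 without a filter, 5 with genomic reads, 5 with the sample number as a replicate block and 5 with striatal samples of 1 file only. For isoform usage, 0 members passed in the cortex with known isoforms only, where the 13-exon Dctn2 form is left out by construction, and 1 passed between regions in R6/2 mice with ISM isoforms added. Leaving out each sample gave 0 to 2 members between regions in NT mice, 3 to 5 in R6/2 mice and 4 to 6 for the number of files.

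Of the single values, 330 of 358 kept their direction and side of the threshold, and 374 of 408 when a sample was left out. Log2 values that turned were, between the genotypes in the striatum, Dctn2 (-0.123, 2-file samples only) and Dctn4 (-0.0436 with the first file, -0.36 with 1-file samples). Between regions in NT mice they were Dctn3 (0.0213 with the first file, 0.0897 with 1-file samples), Hap1 (-0.0992) and Actr1b (-0.383, both with 1-file samples), and in R6/2 mice with 1-file samples Hap1 (-0.196), Dctn3 (0.0335) and Actr1b (-0.265). Leaving out a sample turned, in the cortex, Dctn1 (range -0.00897 to 0.157), Dctn3 (-0.316 to 0.0116) and Dctn5 (-0.239 to 0.0247), in the striatum Hap1 (-0.0421 to 0.979), Dctn1 (-0.0991 to 0.271), Dctn2 (-0.0663 to 0.31), Dctn4 (-0.106 to 0.234) and Dctn6 (-0.0888 to 0.393), between regions in NT mice Dctn3 (-0.234 to 0.117), and for the number of files Dctn4 (-0.383 to 0.00133). None of these values passed the test in the fit reported above. The cause was not tested for any of these.

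No label ties samples of the same number to 1 mouse or batch, and their deviations correlated between -0.573 and 0.62. Between regions, the 4 correlations were 0.398, 0.189, 0.376 and -0.0409 in R6/2 and -0.228, 0.226, 0.117 and -0.169 in NT mice. These values do not decide whether the numbers are pairs. The paper took striatum and cortex from the left hemisphere, so both regions can come from the same mice. If so, the tests between regions above ignore that pairing. With a replicate block, 0 members passed between genotypes, 1 between regions in NT and 5 in R6/2 mice. Few reads limit Htt (141) and the 13-exon Dctn2 form (97), and other isoforms had fewer.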

Other observations

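Genes whose level was most like that of Htt over the 16 samples were Smarcc2 (Pearson r = 0.81), Supt5 (0.77) and Nfe2l1 (0.76), among 4757 genes with at least 20 reads in the mean sample, in log2 CPM. For Hap1 they were Ap1m1 (0.93), Chst10 (0.91) and Mboat7 (0.89) among 4756. These are descriptions over 16 samples that share libraries, depth, regions and numbers of count files, and Hap1 itself was 3.13 times as high in striatal samples of 2 files as in those of 1.

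Markers of choroid plexus summed to 55.3 to 9630.4 CPM in the NT striatum and to 95.5 to 323 CPM in the R6/2 striatum, and to 18.1 to 1643 CPM in the cortex.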
